A study of Mus musculus with 48 samples.

Results

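Left nodose ganglia taken in the late light phase were compared with left nodose ganglia taken in the late dark phase. The nodose ganglion holds the cell bodies of vagal sensory neurons, which carry signals from the organs to the brainstem. Times are zeitgeber times (ZT, hours after lights on in a cycle of 12 h light and 12 h dark). The comparison takes the 6 nodose libraries of ZT10 and the 6 of ZT22, 12 of the 24 nodose libraries and of the 48 libraries in the series, whose other 24 libraries are from the arcuate nucleus of the hypothalamus. Libraries were taken by their labelled tissue and time.

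All mice were C57Bl/6J males with floxed alleles of the genes for REV-ERBα (Nr1d1) and REV-ERBβ (Nr1d2), 10 to 12 weeks old, fed chow ad libitum and housed at 27 °C. At 6 to 10 weeks of age each received AAV8, an adeno-associated virus, in the tail vein, and tissue was collected 2 to 4 weeks later. AAV8-TBG-EGFP gave the Control mice and AAV8-TBG-Cre the HepDKO mice. TBG is a hepatocyte promoter, so deletion was directed at the liver and the ganglia were not the target. The 4 groups were Control ZT10, HepDKO ZT10, Control ZT22 and HepDKO ZT22, with 3 libraries each, and each library pooled the left ganglia of 4 mice, so spread between mice is averaged within a library. Nothing in the labels names a batch.

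The circadian clock is a feedback loop of transcription factors that runs in most cells. BMAL1 (encoded by Arntl) pairs with CLOCK or NPAS2, binds E-boxes and drives the Per and Cry genes, whose proteins repress that pair, and also drives Nr1d1 and Nr1d2, whose proteins repress Arntl and Npas2. The activators also drive the PAR bZIP factors DBP, TEF and HLF, which bind D-boxes and carry time of day to output genes. In tissues of nocturnal rodents outside the central clock, Dbp, Nr1d1 and the Per genes peak during the light phase or near its end, and Arntl peaks in the late night.

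The libraries held 4169415 to 10422914 counts, with 5027096 to 10422914 at ZT10 and 4169415 to 8476711 at ZT22. They went against the label in part. Defining markers of vagal neurons were at or near 0: Scn10a had at most 0.306 CPM (counts scaled to library size) in the 12 libraries, Glp1r 0 in every library, and 11 of 19 listed vagal neuron markers had a median under 1 CPM. Piezo2, of the same list, was at 46.3 to 82.1 CPM. Peripherin (Prph) ranged from 1.66 to 4.82 CPM. Schwann cell genes summed to 17939 to 31841 CPM over 10 genes at ZT10 and to 19632 to 44936 at ZT22. Skeletal muscle genes were abundant, and 15 of them took from 7.65% to 18.8% of all counts. The libraries are therefore described as labelled, and fewer cells of a type cannot be told apart from less RNA per cell in them.

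One HepDKO ZT10 library, replicate 2, held 1694 counts of Xist, the RNA of the inactive X chromosome of females, where the other 11 libraries held at most 13. Its label says male. HepDKO ZT22 replicate 3 stood apart on the leading principal component, at 59.9 where the others lay between -22.3 and 18.5. The counts of genes that passed are given below with and without them.

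Muscle and fat content was measured in each library. The 15 muscle genes made up 18.8%, 17.5% and 9.74% of counts in the Control ZT10 libraries and 10.1%, 15.4% and 12.8% in the HepDKO ZT10 libraries. At ZT22 they made up 7.65%, 7.65% and 15.4% in Control and 8.23%, 11.7% and 16.3% in HepDKO. The times overlapped widely. On the scale of mean log2(CPM + 1) the muscle score was 0.35 higher at ZT10 (exact permutation of time within genotype, two-sided p = 0.34, smallest possible 0.005). That difference was 0.59 without Control ZT22 replicate 3, 0.56 without HepDKO ZT22 replicate 3, 0.21 without Control ZT22 replicate 1 and 0.16 without HepDKO ZT22 replicate 1. The 11 adipocyte genes took 0.104% to 0.216% of counts at ZT10 and 0.0409% to 0.187% at ZT22, and their score was 0.81 higher at ZT10 (exact permutation p = 0.055, 0.192 with Benjamini-Hochberg adjustment over 14 marker lists). The ranges of fat content overlapped. Without HepDKO ZT10 replicate 2 the adipocyte score difference was 0.93 (exact permutation p = 0.03), and without HepDKO ZT22 replicate 3 it was 0.92 (exact permutation p = 0.035). The fibroblast score was 0.30 lower at ZT10 (exact permutation p = 0.015, adjusted 0.105). The thyroid score differed by -0.29 with the same p, but Tshr, described further on, was the one gene of its 5 that passed, and Tg, the other one tested, had a log2 fold change of 0.072. The 3 neuron lists did not move together: the vagal sensory neuron score was 0.07 lower at ZT10 (exact permutation p = 0.045, adjusted 0.192), the general neuron score 0.06 higher (exact permutation p = 0.395) and the sympathetic neuron score differed by -0.03 (exact permutation p = 0.695).

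**Figure D1:**
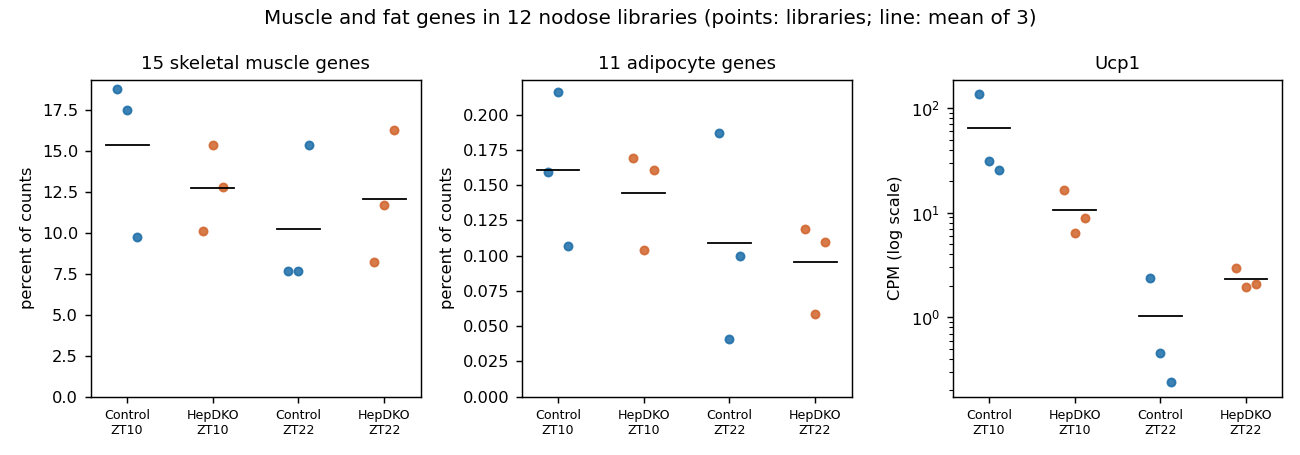
Share of counts taken by 15 skeletal muscle genes and by 11 adipocyte genes (percent), and Ucp1 in CPM on a log scale, in each of the 12 libraries by genotype and time. Points are libraries and lines are means of 3. Muscle shares overlap between the times, while every ZT10 library lies above every ZT22 library for Ucp1.

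Of 14379 genes tested, 46 (0.32%) differed between ZT10 and ZT22 at an adjusted p under 0.05 (edgeR quasi-likelihood test with genotype as covariate and Benjamini-Hochberg adjustment). The threshold was passed by 26 genes higher at ZT10 (0.181%) and 20 higher at ZT22 (0.139%). At an unadjusted p under 0.05 there were 702 genes (4.88%) higher at ZT10 and 609 (4.24%) higher at ZT22. Of the 46 genes, 28 differed more than 2-fold, 20 of them higher at ZT10. The 6 libraries of one time did not overlap with the 6 of the other in 41 of the 46, against 0.974% of all genes tested. The exceptions were Chrna9, Dgat2, Spon2, Per1 and Pfkfb1. Clock genes made up 14 of the 46, out of 27 clock genes tested, with 11 higher at ZT10 and 3 higher at ZT22.

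**Figure D2:**
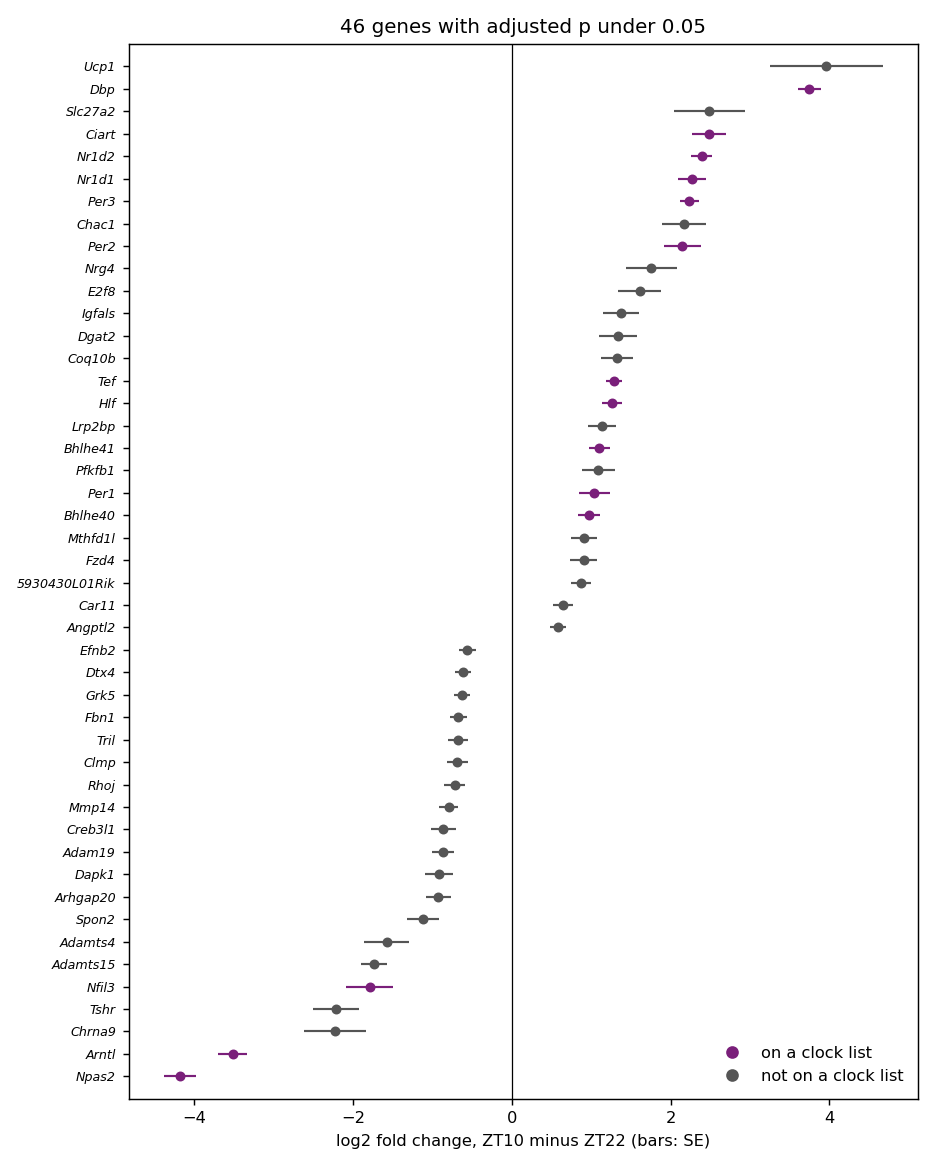
The 46 genes with adjusted p under 0.05, ordered by log2 fold change (ZT10 minus ZT22, bars are SE). Purple points are genes on a clock list and grey points are other genes. Values run from -4.18 for Npas2 to 3.96 for Ucp1, and clock genes hold most of the places with large changes and short bars.

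How many genes passed depended on the test and on single libraries. With DESeq2 133 genes passed, 72 higher at ZT10 and 61 higher at ZT22, and 44 of the 46 were among them. In the fit of all 24 nodose libraries 63 passed, 27 higher at ZT10 and 36 higher at ZT22, with 38 of the 46 among them. The count was 26 without Control ZT10 replicate 1, 21 without Control ZT10 replicate 2 and 30 without Control ZT22 replicate 3. It was 21, 30 and 26 without HepDKO ZT10 replicates 1, 2 and 3 in turn, and 28, 27 and 81 without HepDKO ZT22 replicates 1, 2 and 3. Without HepDKO ZT10 replicate 2, the library with Xist, 30 of the 46 remained, and without HepDKO ZT22 replicate 3, 39 remained. In all 12 refits that each left out 1 library, 20 of the 46 genes passed: 12 clock genes (Dbp, Npas2, Arntl, Per3, Nr1d2, Nr1d1, Tef, Ciart, Hlf, Per2, Bhlhe41 and Bhlhe40) and Adamts15, Chac1, Tshr, 5930430L01Rik, Mmp14, Coq10b, Lrp2bp and Adam19. With the muscle and adipocyte scores as covariates 41 genes passed, 16 higher at ZT10 and 25 higher at ZT22, and 25 of the original 46 were among them. With the fibroblast score as covariate, an alternative chosen after seeing the data, 10 genes passed, 9 of them clock genes and the other Adamts15. None of the 46 changed direction under any of these settings.

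Npas2 and Arntl, which encode transcriptional activators of the clock, were higher at ZT22. Npas2, the partner of BMAL1 in place of CLOCK, had 0.534, 0.982 and 1.11 CPM (lowest, median and highest of 6 libraries) at ZT10 and 13.4, 17.6 and 20.2 at ZT22. Its log2 fold change, ZT10 minus ZT22, was -4.18 (SE 0.20, adjusted p 2.67e-08), 18.1-fold lower at ZT10. Every ZT22 library lay above every ZT10 library. Arntl had 2.45, 3.74 and 5.68 CPM at ZT10 and 38.2, 45.97 and 52.3 at ZT22, with a log2 fold change of -3.51 (SE 0.19, adjusted p 8.68e-08). Clock itself had 92.1, 102 and 108 CPM at ZT10 and 64.9, 144 and 162 at ZT22, a log2 fold change of -0.42 (unadjusted p 0.0303, adjusted p 0.497) with overlapping libraries. Without HepDKO ZT22 replicate 3 it passed, with -0.58 (adjusted p 0.00296).

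The Per genes, repressors of the activator pair, were higher at ZT10. Per3 had 156, 172 and 195 CPM at ZT10 and 28.8, 34.1 and 45.3 at ZT22, a log2 fold change of 2.24 (SE 0.12, adjusted p 9.13e-08). Per2 had 66.8, 81.5 and 92.9 CPM and 10.4, 15.1 and 39.3 CPM, a log2 fold change of 2.15 (SE 0.23, adjusted p 3.06e-04). For both genes the times did not overlap. Per1 had 108, 128 and 150.3 CPM at ZT10 and 45.9, 57.3 and 123 at ZT22, a log2 fold change of 1.04 (SE 0.20, adjusted p 0.0393). The overlapping library was Control ZT22 replicate 1, with 123 CPM, where the other ZT22 libraries had at most 57.7. Per1 passed in 1 of 12 refits with 1 library left out, that without Control ZT22 replicate 1, and its adjusted p reached 0.125 in the others. The cryptochromes did not pass: Cry1 had a log2 fold change of -0.60 (unadjusted p 0.00264, adjusted p 0.239) and Cry2 of 0.39 (unadjusted p 0.0294, adjusted p 0.496), in opposite directions.

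Nr1d1 and Nr1d2, the genes floxed in all mice, were higher at ZT10 in both genotypes. Nr1d1 had 74.8, 86.4 and 126 CPM at ZT10 and 14.1, 18.6 and 26.1 at ZT22, a log2 fold change of 2.27 (SE 0.18, adjusted p 8.85e-06). In Control it was 2.31 and in HepDKO 2.22. Nr1d2 had 187, 235 and 264 CPM and 36.98, 42.01 and 52.6 CPM, a log2 fold change of 2.39 (SE 0.13, adjusted p 1.02e-07), with 2.44 in Control and 2.35 in HepDKO. The times did not overlap for either gene. Among the ROR receptors, which bind the same DNA element and activate, Rora had 0.44 (unadjusted p 0.00541, adjusted p 0.315), not past the threshold.

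All 3 genes of the PAR bZIP activators passed, each higher at ZT10, and so did their competitor Nfil3. Dbp had 52.2, 58.8 and 68.96 CPM at ZT10 and 2.63, 4.47 and 5.81 at ZT22, 13.4-fold higher at ZT10, with a log2 fold change of 3.75 (SE 0.15, adjusted p 3.84e-09). Tef had 259.9, 266 and 302 CPM and 95.6, 109 and 135 CPM, a log2 fold change of 1.29 (SE 0.10, adjusted p 1.07e-05). Hlf had 68.5, 76.7 and 88.1 CPM and 22.05, 33.3 and 37.5 CPM, a log2 fold change of 1.26 (SE 0.12, adjusted p 8.97e-05). Tef and Hlf changed far less than Dbp although all 3 separated the times fully. Nfil3, a repressor that competes at the same D-box sites, went the other way with 5.26, 8.89 and 14.1 CPM at ZT10 and 21.9, 24.6 and 56.9 at ZT22, a log2 fold change of -1.79 (SE 0.29, adjusted p 0.0168). Its adjusted p reached 0.0717 when HepDKO ZT10 replicate 1 or replicate 3 was left out.

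**Figure D3:**
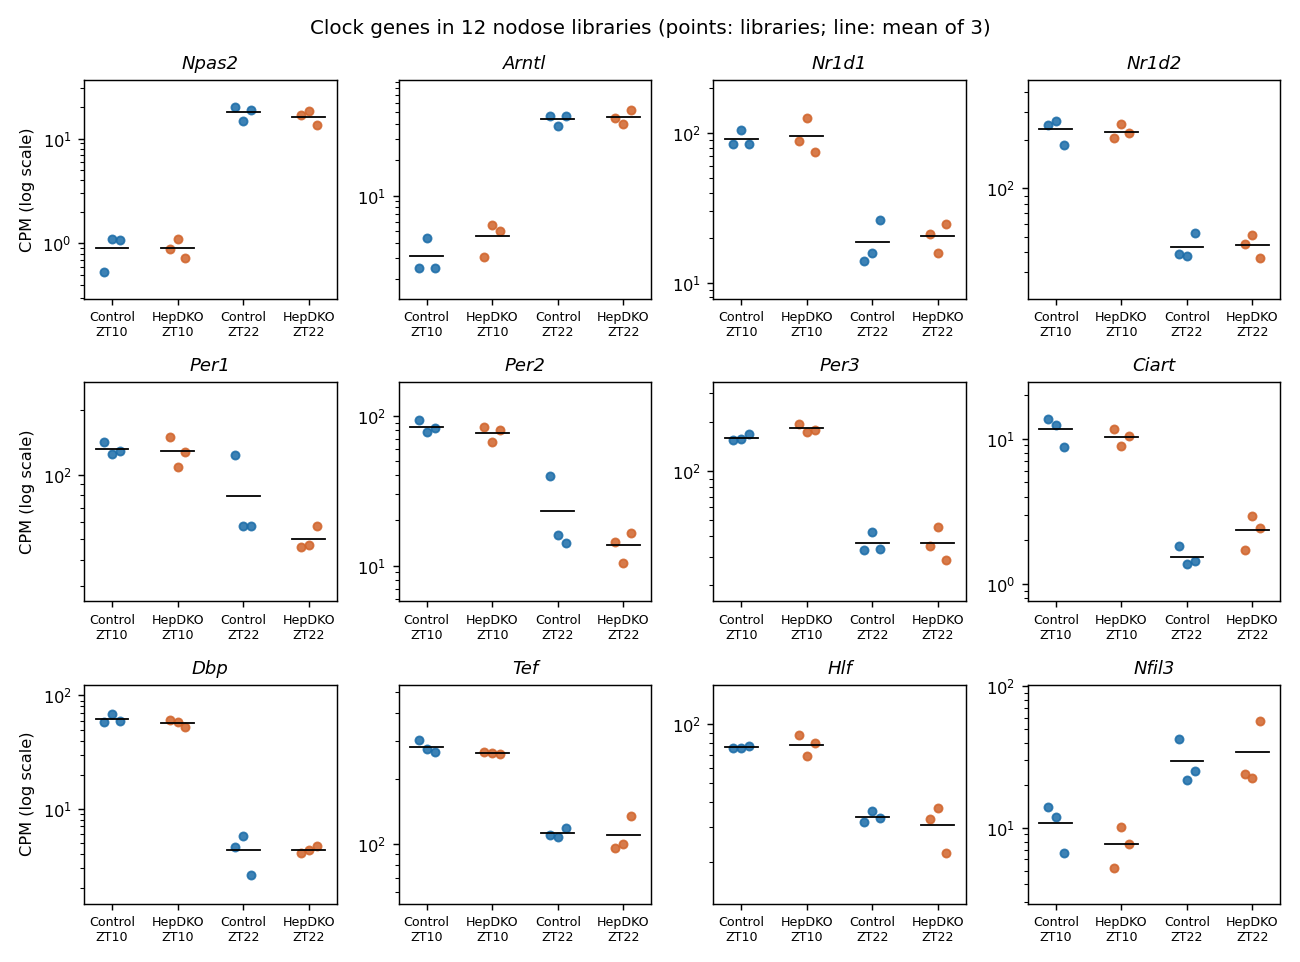
CPM on a log scale of 12 clock genes in the 12 libraries, by genotype and time. Points are libraries and lines are means of 3. Npas2, Arntl and Nfil3 lie higher at ZT22 and the other 9 genes higher at ZT10, with overlap between times only for Per1.

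In the secondary loop, 3 repressors of the activator pair passed. Ciart (CHRONO) had 8.71, 11.02 and 13.5 CPM at ZT10 and 1.38, 1.78 and 2.94 at ZT22, a log2 fold change of 2.49 (SE 0.21, adjusted p 2.02e-05). Bhlhe41 (DEC2) had 56.97, 61.2 and 67.96 CPM and 21.7, 28.8 and 37.6 CPM, a log2 fold change of 1.10 (SE 0.13, adjusted p 6.74e-04), and its relative Bhlhe40 (DEC1) had 0.98 (SE 0.14, adjusted p 0.00534). The times did not overlap for any of the 3. Noct, a gene of the nocturnin phosphatase, fell just short with 0.90 (unadjusted p 1.74e-04, adjusted p 0.0522), followed by the deubiquitinase gene Usp2 with 0.95 (unadjusted p 4.78e-04, adjusted p 0.098) and the mitotic kinase gene Wee1 with 0.85 (unadjusted p 0.00186, adjusted p 0.205). With DESeq2 all 3 passed (adjusted p 0.00137, 0.00407 and 0.0314). With edgeR Noct also passed without Control ZT10 replicate 3 or Control ZT22 replicate 1, and Wee1 without the latter. Genes of kinases and a ligase that act on PER and CRY proteins were near 0: Csnk1d had a log2 fold change of 0.031, Csnk1e -0.062 and Fbxl21 -0.012. Fbxl21 was unsteady, with 0.51 when the muscle and adipocyte scores were covariates and -0.21 to 0.20 when a library was left out. Timeless had -0.023, and -0.13 to 0.36 when a library was left out, and Rorb was too low to be tested.

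Promoter letters are shown for called clock genes and 1 other called gene because the motif each holds is the one read by the factors above. Of the 14 called clock genes 12 had a promoter in the table, 6 of these held a motif searched for, and 6 (Dbp, Nr1d1, Nr1d2, Hlf, Npas2 and Nfil3) held none in this window. Sequences are from RefSeq on GRCm38.p6, the assembly also called mm10, within 250 bases before to 50 after an annotated start, and are written 5′ to 3′ along the gene. Capitals mark an E-box, CACGTG, or a D-box, TTATGTAA or TTACGTAA, or for Arntl the REV-ERB and ROR element, whose core is GGTCA. Both strands were searched, and no hits overlap in the stretches shown. A match is a description of letters and not a measured binding site.
Ciart (chr3:95882247-95882364, minus strand): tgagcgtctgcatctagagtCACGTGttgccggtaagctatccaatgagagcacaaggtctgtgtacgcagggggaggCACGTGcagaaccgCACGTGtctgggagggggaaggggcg
Tef (chr15:81802526-81802571, plus strand): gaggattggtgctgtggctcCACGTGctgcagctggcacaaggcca
Tef, other start (chr15:81811256-81811301, plus strand): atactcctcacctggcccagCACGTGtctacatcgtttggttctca
Per1 (chr11:69098763-69098808, plus strand): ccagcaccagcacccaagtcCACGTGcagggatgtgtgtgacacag
Bhlhe41 (chr6:145865548-145865593, minus strand): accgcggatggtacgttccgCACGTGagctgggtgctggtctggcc
Per3 (chr4:151044796-151044890, minus strand): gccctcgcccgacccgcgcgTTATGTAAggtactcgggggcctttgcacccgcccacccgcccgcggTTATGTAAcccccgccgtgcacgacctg
Coq10b (chr1:55052588-55052717, plus strand): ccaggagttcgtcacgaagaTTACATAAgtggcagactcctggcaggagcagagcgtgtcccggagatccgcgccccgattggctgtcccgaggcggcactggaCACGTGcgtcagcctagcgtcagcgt
Arntl (chr7:113207528-113207557, plus strand): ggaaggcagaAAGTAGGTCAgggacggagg

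The stretches run from 20 bases before the leading motif to 20 after the last, and from 10 bases on each side for Arntl. Ciart held 3 E-boxes, at -116, -58 and -44 from its start. Per3 held 2 D-boxes, at -205 and -158, and Coq10b held both a D-box read on the opposite strand at -162 and an E-box at -78. Arntl, the target of the REV-ERB repressors, held a REV-ERB and ROR element 28 bases into the transcript of a start. Of the 26 genes higher at ZT10, 23 had a promoter in the table, and 6 of these (26.1%) held an E-box: Bhlhe41, Ciart, Coq10b, Per1, Tef and 5930430L01Rik. These were 4 of the 9 genes on a clock list (44.4%) and 2 of the 14 on none (14.3%). All tested genes with a promoter held one in 11.3% of 11313. A D-box was found in 2 of the 23 (8.7%), against 0.919% of all. Of the 20 genes higher at ZT22, 13 had a promoter, 1 of them (7.69%) held an E-box (Adam19) and 1 (7.69%) a REV-ERB and ROR element (Arntl), against 0.513% of all for that element.

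Outside the clock lists, 15 genes were higher at ZT10. Chac1, an enzyme that degrades glutathione, had 6.51, 8.80 and 19.3 CPM at ZT10 and 1.07, 1.65 and 4.31 at ZT22, a log2 fold change of 2.17 (SE 0.27, adjusted p 0.00162). The times did not overlap, and with muscle and adipocyte scores as covariates the value was 1.64 (adjusted p 0.0105). Coq10b, a mitochondrial protein that binds coenzyme Q, had 21.2, 25.5 and 27.8 CPM and 3.99, 11.3 and 12.3 CPM, a log2 fold change of 1.33 (SE 0.20, adjusted p 0.0101). Lrp2bp, which encodes a binding partner of the endocytic receptor megalin, had 6.22, 7.77 and 10.7 CPM and 3.34, 3.62 and 4.20 CPM, a log2 fold change of 1.13 (SE 0.18, adjusted p 0.0113). These 3 genes and 5930430L01Rik, with 0.88, passed whichever library was left out, but none of the 4 passed with the fibroblast score as covariate. E2f8, a repressor of cell cycle genes, had 9.12, 17.5 and 24.1 CPM and 3.83, 5.37 and 7.26 CPM, a log2 fold change of 1.61 (SE 0.27, adjusted p 0.0203), and passed in 5 of 12 such refits. With the muscle and adipocyte scores Lrp2bp had 1.01 (adjusted p 0.117) and E2f8 1.44 (adjusted p 0.167), and neither passed in the fit of all 24 nodose libraries.

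The next 4 genes act in lipid handling or brown fat and are given together, a grouping made after their values were seen and not tested. Ucp1, which encodes the uncoupling protein of brown fat, had 136, 31.3 and 25.7 CPM in the 3 Control ZT10 libraries and 16.7, 6.38 and 8.83 in the 3 HepDKO ZT10 libraries. The ZT22 libraries held 2.36, 0.459 and 0.239 CPM (Control) and 2.96, 1.96 and 2.08 CPM (HepDKO). The times did not overlap, but the ZT10 libraries ranged widely, with Control replicate 1 highest. The log2 fold change was 3.96 (SE 0.71, adjusted p 0.0291), and 2.93 (adjusted p 0.372) with the muscle and adipocyte scores as covariates, a score that includes Ucp1 itself. With the fibroblast score it was 2.19, also not past the threshold. Without Ucp1 the adipocyte score was 0.56 higher at ZT10 (exact permutation p = 0.195). Dgat2, the enzyme of the last step of triglyceride synthesis, had 78.2, 124 and 169.5 CPM and 34.4, 42.6 and 85.9 CPM, a log2 fold change of 1.33 (SE 0.24, adjusted p 0.0291). Slc27a2, a fatty acid transporter and acyl-CoA synthetase, had 2.46, 6.68 and 10.3 CPM and 0.459, 1.01 and 2.10 CPM, a log2 fold change of 2.49 (SE 0.45, adjusted p 0.0291). Nrg4, a ligand of the epidermal growth factor family that brown fat secretes, had 6.93, 11.8 and 21.3 CPM and 1.99, 3.54 and 6.05 CPM, a log2 fold change of 1.76 (SE 0.32, adjusted p 0.0331). These 4 genes passed in 5, 3, 3 and 4 of 12 refits with 1 library left out, with adjusted p up to 0.113, and none passed with the scores as covariates. With the scores the log2 fold change was 0.86 for Dgat2, 2.02 for Slc27a2 and 1.19 for Nrg4, still positive. The part of fat content in these results was not tested further.

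The remaining genes higher at ZT10 have varied functions. Pfkfb1, which sets the level of a glycolysis activator, had 1.09 on the log2 scale, and Mthfd1l, a mitochondrial enzyme of folate metabolism, 0.91. Igfals, which binds complexes of insulin-like growth factor, had 3.04, 3.97 and 6.22 CPM at ZT10 and 1.18, 1.46 and 2.39 at ZT22, a log2 fold change of 1.38 (SE 0.23, adjusted p 0.0171). Smaller differences were found in the Wnt receptor Fzd4 (0.90), the carbonic anhydrase relative Car11 (0.65) and the secreted protein Angptl2 (0.58). Igfals passed in 8 of 12 of the refits, Angptl2 in 5, Mthfd1l in 3, Pfkfb1 in 2, and Fzd4 and Car11 in 1 each.

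Outside the clock lists, 17 genes were higher at ZT22. Those with a role in the extracellular matrix or in protein shedding are given together, a grouping made after their values were seen and not tested. Adamts15, a protease of matrix proteoglycans, had 8.01, 12.00 and 13.7 CPM at ZT10 and 30.4, 35.9 and 47.2 at ZT22, a log2 fold change of -1.73 (SE 0.16, adjusted p 4.27e-05). It was the one gene outside the clock lists that passed under every alternative tried. Its relative Adamts4 had 1.25, 1.84 and 4.57 CPM and 5.15, 6.51 and 10.6 CPM, a log2 fold change of -1.57 (SE 0.28, adjusted p 0.0291). The membrane protease gene Mmp14 had 42.7, 66.8 and 78.5 CPM and 104, 109 and 132 CPM, a log2 fold change of -0.79 (SE 0.12, adjusted p 0.0064). Adam19, which sheds membrane proteins, had -0.87 on the log2 scale (adjusted p 0.0156). Fibrillin-1, the core of elastic microfibrils, is encoded by Fbn1, which had 375, 428 and 539 CPM at ZT10 and 653, 688 and 786 at ZT22, a log2 fold change of -0.67 (SE 0.11, adjusted p 0.0168). The secreted matrix protein gene Spon2 had -1.12 and Creb3l1, a transcription factor of collagen secretion, -0.86. The times did not overlap for any of these genes but Spon2. Adamts15, Mmp14 and Adam19 passed whichever library was left out, Fbn1 in 8 of 12 such refits, Adamts4 and Spon2 in 5 each and Creb3l1 in 2. With the muscle and adipocyte scores as covariates Adamts15, Mmp14 and Fbn1 passed and the other 4 did not, with log2 fold changes of -1.17 for Adamts4, -0.69 for Adam19, -0.87 for Spon2 and -0.83 for Creb3l1. With the fibroblast score as covariate only Adamts15 of them passed, while the log2 fold changes were -0.60 for Mmp14, -0.56 for Fbn1, -0.75 for Creb3l1, -0.59 for Adam19, -0.77 for Spon2 and -1.19 for Adamts4. In that fit 226 of all genes were higher at ZT10 and 216 higher at ZT22 at an unadjusted p under 0.05, against 702 and 609 without the covariate. The fibroblast score was itself lower at ZT10, and its part in these results was not tested further.

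The other genes higher at ZT22 follow. Tshr, the thyrotropin receptor and a gene of the thyroid marker list, had 1.01, 1.57 and 2.41 CPM at ZT10 and 3.52, 7.62 and 11.9 at ZT22, a log2 fold change of -2.21 (SE 0.30, adjusted p 0.00279), and passed whichever library was left out. The other 4 thyroid markers were low or absent, since all 5 summed to at most 4.45 CPM at ZT10 and 13.3 at ZT22. Chrna9, a nicotinic receptor subunit, had 0.1, 0.323 and 0.693 CPM and 0.644, 1.55 and 3.34 CPM, with -2.22 (SE 0.39, adjusted p 0.0251), overlapping libraries and counts near the floor of detection (3 counts, 0.288 to 0.72 CPM by library). Grk5, a kinase of G protein-coupled receptors, had -0.62, the Notch pathway ligase Dtx4 -0.61, and the small GTPase pathway genes Arhgap20 and Rhoj -0.92 and -0.72. Tril, Efnb2, Clmp and Dapk1, named after their values were seen, had -0.68, -0.56, -0.69 and -0.91. Of these, Grk5 and Dtx4 passed in 7 of 12 refits with 1 library left out, Arhgap20 in 6, Chrna9 in 4, and the others in 2 or 3.

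The pathway lists outside the clock gave 1 gene past the threshold, Dgat2 of the fatty acid synthesis list. Counts below are therefore at an unadjusted p under 0.05, read against 4.88% of all genes higher at ZT10 and 4.24% higher at ZT22, and against a median log2 fold change of -0.01 over all genes. Fatty acid oxidation genes lay higher at ZT10, 10 of 20 at that level and none lower, with a median of 0.40. The 10 was 7 without HepDKO ZT10 replicate 2 and 12 without HepDKO ZT22 replicate 3. The trifunctional protein gene Hadhb had a log2 fold change of 0.62 and the dehydrogenase gene Acadl 0.61. The median was 0.18 with the muscle and adipocyte scores as covariates. Among oxidative phosphorylation subunits, 23 of 78 were higher at ZT10 and 1 lower, with a median of 0.34 that was 0.14 with the scores. Cox7b had the lowest p of them, 0.65 (unadjusted p 0.00577, adjusted p 0.322). Leaving out 1 library moved that 23 to 58 without HepDKO ZT22 replicate 3, which had 16.3% muscle counts. It was 4 and 13 without Control ZT10 replicates 1 and 2, 7 and 10 without Control ZT22 replicates 1 and 2, 10 without HepDKO ZT10 replicate 2 and 13 without HepDKO ZT22 replicate 1. With the fibroblast score as covariate it was 0 of 78, and fatty acid oxidation genes counted 2 of 20.

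Fatty acid synthesis genes differed in direction. Fasn, Acly, Acaca, Acss2, Me1 and Pnpla3 were higher at ZT22 at an unadjusted p under 0.05 (6 of 15 tested), Dgat2 and Gpam, of triglyceride assembly, were higher at ZT10, and the other 7 did not reach that level. Fasn, fatty acid synthase, had 331, 399 and 697 CPM at ZT10 and 408, 855 and 1895 at ZT22 and -0.95 (unadjusted p 0.00679, adjusted p 0.338). Pnpla3, a lipase gene, had 11.8, 14.8 and 20.3 CPM and 15.3, 33.3 and 75.2 CPM and -1.25 (unadjusted p 3.62e-04, adjusted p 0.0814). With the muscle and adipocyte scores 3 genes of the list passed the adjusted threshold, all higher at ZT22. Cholesterol synthesis genes counted 0 of 23 at that level in either direction, with a median of -0.22. With those scores 5 of 23 were higher at ZT10 and the median was 0.24.

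Collagens and laminins lay higher at ZT22, 7 of 20 at an unadjusted p under 0.05 with none higher at ZT10 and a median of -0.29. Col5a2 had 210.4, 259.6 and 339.9 CPM at ZT10 and 288, 349 and 572 at ZT22 and -0.51 (unadjusted p 0.00552, adjusted p 0.319). With the fibroblast score as covariate, which itself holds 3 collagen genes, the count was 0 and the median -0.10. Without 1 library the 7 became 4 (Control ZT10 replicate 1), 3 (Control ZT22 replicate 2, HepDKO ZT10 replicate 1 or replicate 3) or 11 (HepDKO ZT22 replicate 1). Chaperones and stress factors of the endoplasmic reticulum counted 6 of 18 higher at ZT22 and 1 higher at ZT10, with a median of -0.17. The 6 became 2 without HepDKO ZT10 replicate 1 or replicate 3, and 0 with the fibroblast score as covariate. Hsp90b1 had -0.34, Calr -0.43 and Hspa5 -0.32, while Herpud1, of protein degradation at that membrane, had 0.36. Without HepDKO ZT22 replicate 3 Herpud1 passed, with 0.48 (edgeR adjusted p 0.0181).

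Immediate early genes, which respond within minutes to cell activity, counted 4 of 16 higher at ZT10. Nr4a3 had 5.41, 7.95 and 24.5 CPM at ZT10 and 1.77, 3.25 and 5.74 at ZT22 and 1.52 (unadjusted p 6.78e-04, adjusted p 0.116). It passed with DESeq2 (1.54, adjusted p 0.00379) and, with edgeR, without Control ZT10 replicate 3 (1.69, adjusted p 0.0414). Fos had -0.26. Glucocorticoid-responsive genes, a readout of the adrenal hormone, counted 2 of 14 higher at ZT10 (Sgk1 with 0.57 and Klf9 with 0.44) and 1 higher at ZT22, the cell cycle inhibitor gene Cdkn1a with -0.55 (unadjusted p 0.0045, adjusted p 0.293). The 2 became 9 without Control ZT22 replicate 1 and 1 without each of the others except Control ZT10 replicate 3, where it stayed 2. FoxO and muscle atrophy genes counted 3 of 14 higher at ZT10, led by Eif4ebp1 with 0.59 (unadjusted p 0.0054, adjusted p 0.315). With the muscle and adipocyte scores as covariates 1 of the 14 was higher at ZT10 and 2 higher at ZT22, with a median of -0.001. Proteasome subunits counted 3 of 37 higher at ZT10, led by Psma4 with 0.32 (6 without Control ZT10 replicate 3, 9 without HepDKO ZT22 replicate 3, and 1 without any of 5 other libraries), and ribosomal protein genes 2 of 75, led by Rpl24 with 0.27 and a list median of 0.01. Heat-shock genes counted 1 of 17 in each direction, with Hsp90aa1 at -0.38. Interferon-stimulated genes counted 1 of 18 higher at ZT22 (Ifi44, -0.87), cell division genes 1 of 15 higher at ZT22 (Top2a, -0.63), and cytokines and adhesion genes 1 of 8 higher at ZT10 (Vcam1, 0.62). The last 5 of these lists, from the ribosomal protein genes on, counted between 0 and 4 in either direction when a library was left out.

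The genotypes were then fitted apart. In Control, 15 genes (0.104%) passed, and in HepDKO 11 (0.0765%), all of them among the 15. The Control count was 9 without Control ZT10 replicate 1. Without HepDKO ZT10 replicate 2 the counts were 13 in Control and 11 in HepDKO, and without HepDKO ZT22 replicate 3 they were 17 and 10. The 11 were Dbp, Npas2, Arntl, Per3, Nr1d2, Nr1d1, Tef, Ciart, Hlf, Per2 and Adamts15. Bhlhe41, Bhlhe40, Ucp1 and Dgat2 passed in Control alone, which does not show a difference between genotypes. Dbp had a log2 fold change of 3.78 in Control and 3.71 in HepDKO, and Npas2 had -4.22 and -4.13. Arntl had -3.76 in Control and -3.27 in HepDKO, a difference of 0.49 (SE 0.35).

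The test of the difference itself, the interaction of genotype and time, gave 0 genes of 14379 (0%) with edgeR and 0 with DESeq2, with 430 and 421 genes at an unadjusted p under 0.05. The edgeR count was also 0 without either library. Lingo3, a gene of a leucine-rich membrane protein, had the lowest p with a difference of -2.88 (unadjusted p 7.28e-04, adjusted p 0.933). Of the 46 genes, 2 had an unadjusted interaction p under 0.05. Ucp1 had a log2 fold change of 5.68 in Control and 2.11 in HepDKO (unadjusted p 0.00681). Dgat2 had 1.82 and 0.85 (unadjusted p 0.0331). On simulated counts this interaction test recovered 0% of 2-fold differences, so a count of 0 sets no bound at that size.

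Arcuate libraries of the same times and genotypes gave a comparison with another tissue, made by another provider with another preparation, so an effect of the preparation and one of the tissue cannot be told apart. They were deeper, with 15483922 to 18550117 counts. In arcuate alone 174 of 15783 genes passed between ZT10 and ZT22 (edgeR, adjusted p under 0.05), against 46 of 14379 in nodose. The ZT10 to ZT22 difference was compared between tissues over 13513 genes tested in both, and 20 (0.148%) differed at an adjusted p under 0.05 (limma with voom weights and each tissue's own spread). Clock genes were 12 of the 20, and 19 of the 20 changed more in nodose, while 5 of the 20 had opposite signs in the tissues. The count was 13 without nodose Control ZT10 replicate 1 or without nodose HepDKO ZT10 replicate 3, 51 without nodose Control ZT10 replicate 3, 15 without nodose HepDKO ZT10 replicate 2 and 44 without nodose HepDKO ZT22 replicate 3. Dbp had a log2 fold change of 3.75 in nodose and 1.16 in arcuate, a difference of 2.58 (SE 0.17, adjusted p 6.71e-08). Arntl had -3.51 in nodose and -0.47 in arcuate, a difference of -3.04 (SE 0.21, adjusted p 1.37e-07). Npas2 had -4.13 in nodose and -0.40 in arcuate, a difference of -3.73 (SE 0.28, adjusted p 1.53e-07). The direction was the same in both tissues for these 3 genes, and the size was larger in nodose.

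Genes higher at ZT10 also differed between the tissues. Per3 had 2.25 in nodose and 0.44 in arcuate, a difference of 1.82 (SE 0.13, adjusted p 8.93e-08). Nr1d2 had 2.40 in nodose and 0.43 in arcuate, a difference of 1.97 (SE 0.13, adjusted p 8.93e-08). Chac1 and Tshr were close to 0 in arcuate. Chac1 had 2.25 in nodose and -0.012 in arcuate, a difference of 2.27 (SE 0.33, adjusted p 0.00313), and Tshr had -2.12 in nodose and 0.16 in arcuate, a difference of -2.29 (SE 0.40, adjusted p 0.0147). Mmp14 and Angptl2, on the other hand, had nearly equal values in the tissues. Mmp14 had -0.80 in nodose and -0.78 in arcuate, a difference of -0.023 (SE 0.16, adjusted p 0.979), and Angptl2 had 0.58 in nodose and 0.53 in arcuate, a difference of 0.052 (SE 0.16, adjusted p 0.95). Of the 46 genes, 41 were tested in both tissues and 18 of them were among the 20. The 46 were chosen for their change in these nodose libraries, which favours a larger change in nodose than in arcuate.

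**Figure D4:**
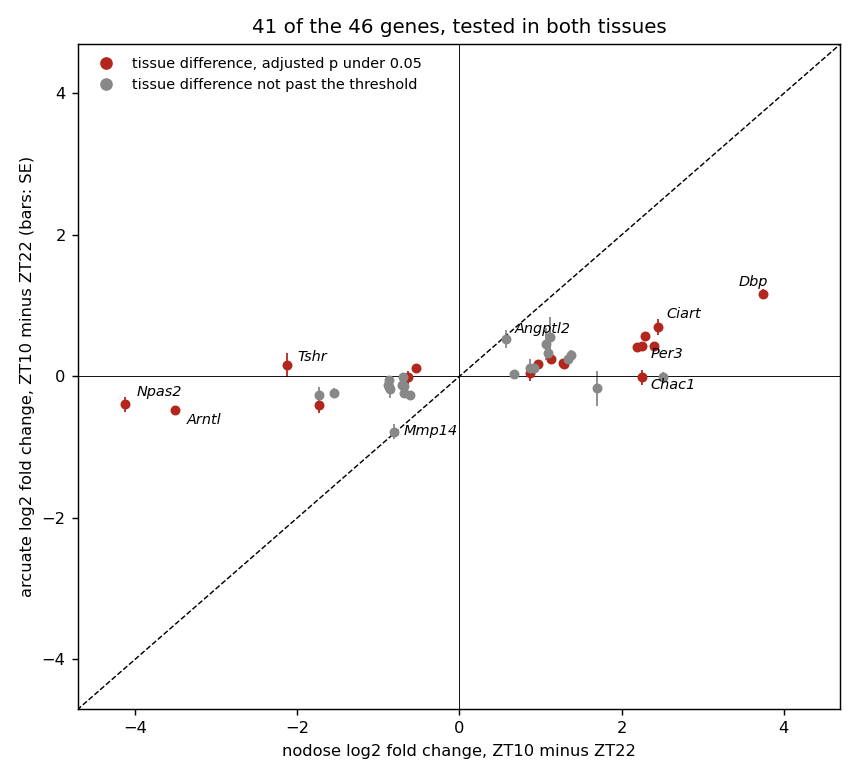
Log2 fold change, ZT10 minus ZT22, in nodose (x axis) and arcuate (y axis, bars are SE) for the 41 of the 46 genes tested in both tissues. The dashed line marks equal change, and red points are the 18 genes whose tissue difference had an adjusted p under 0.05. Most red points lie closer to the horizontal axis than to the dashed line, with Dbp highest at 1.16 in arcuate, while Mmp14 and Angptl2 lie near the dashed line. The genes were chosen for their change in nodose, which favours a larger change there.

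The 12 nodose libraries of ZT4 and ZT16 place the 46 genes in the day, an addition chosen after seeing the data. The genes were chosen for their difference between ZT10 and ZT22 in these libraries, which favours those times as the highest and lowest, so the levels are a description. Dbp had 25.5 ± 15.3, 61.4 ± 5.42, 12.8 ± 4.96 and 4.48 ± 1.06 CPM (mean ± SD, n = 6) at ZT4, ZT10, ZT16 and ZT22. Per2 stayed high into the dark phase with 24.2 ± 13.1, 83.1 ± 8.80, 72.4 ± 15.2 and 18.9 ± 10.8 CPM at those times. Nr1d1 had 98.6 ± 29.4, 96.5 ± 19.1, 15.98 ± 2.78 and 20.2 ± 5.25 CPM, with its 2 highest means at ZT4 and ZT10.

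Genes outside the clock are given in the same way. Chac1 had 4.45 ± 2.25, 10.8 ± 4.83, 2.08 ± 1.89 and 2.42 ± 1.44 CPM at ZT4, ZT10, ZT16 and ZT22, and E2f8 had 5.82 ± 2.76, 17.1 ± 6.56, 6.74 ± 5.80 and 5.54 ± 1.46, both with ZT10 above the other times. Adamts15 had 29.8 ± 9.20, 11.3 ± 2.44, 27.1 ± 5.001 and 37.8 ± 6.07 CPM and was lowest at ZT10. Tshr had 4.12 ± 2.69, 1.66 ± 0.489, 5.87 ± 2.34 and 7.70 ± 2.94 CPM with wide spread at ZT4. Comparing ZT4 with ZT16 in the fit of all 24 nodose libraries, 131 of 14867 genes (0.881%) passed, and 6 of the 46 were among them: Nr1d1, Per2, Per1, Mmp14, Fbn1 and Spon2. Per2 had a log2 fold change, ZT4 minus ZT16, of -1.58 (edgeR adjusted p 0.0132), Nr1d1 of 2.63 (adjusted p 2.21e-07) and Fbn1 of 0.78 (adjusted p 0.00149).

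**Figure D5:**
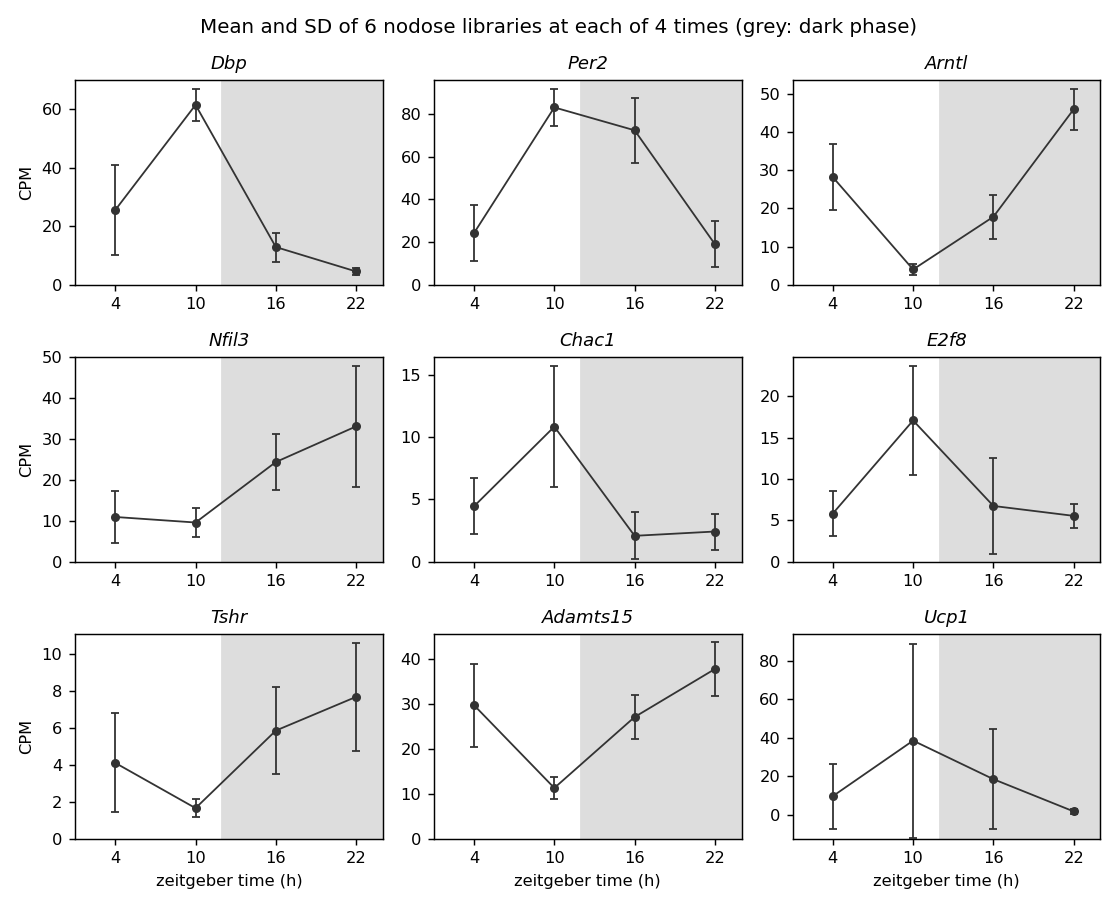
CPM of 9 of the 46 genes at ZT4, ZT10, ZT16 and ZT22 (points are means and bars are SD of 6 nodose libraries, the dark phase is grey). Dbp, Per2, Chac1, E2f8 and Ucp1 are highest at ZT10, and Arntl, Nfil3, Tshr and Adamts15 are lowest there. The bar of Ucp1 at ZT10 is longer than its mean.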

How the data were processed

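RNA was sequenced after depletion of ribosomal RNA (KAPA RNA HyperPrep with RiboErase, 500 ng of total RNA per nodose library, per the labels' protocols). FastQC 0.11.7, Trim Galore 0.6.10, STAR 2.7.10b and the mm10 build are named in the submitters' processing notes. The authors deposited a table of unnormalized read counts for 25229 gene symbols, and the counting tool and annotation are not given in the sources used here.

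The 12 libraries were fitted with edgeR 4.0.16 (R 4.3.3): filterByExpr on the 4 groups of genotype and time (minimum count 10), TMM scaling, and a robust quasi-likelihood fit of genotype plus time. A fit with 1 mean per group gave the genotypes apart and their difference. The tissue difference used limma 3.58.1. All p-values across genes were adjusted over all genes tested by the Benjamini-Hochberg method, with a threshold of 0.05. Marker scores are means of log2(CPM + 1), tested by exact permutation of time within genotype (400 arrangements, two-sided). Lists are described by counts and medians, with no set test. Nothing says which mice or days gave which libraries, so p-values measure the spread between pooled libraries.

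The comparison, its members and the gene lists were chosen with earlier results of these data known. Genes named were all clock genes tested, called members of the other pathway lists or else the member with the lowest p, the 12 lowest p in each direction among called genes on no list, and up to 5 per further test. Ucp1 and Tshr, of marker lists, and 5930430L01Rik were named after their values were seen, as were all other genes outside this rule. Some genes the rule names are not reported here. Library totals are given with the results, and sampling error of counts covers counting only.

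On simulated counts for 14214 genes the ZT10 against ZT22 fit recovered 24.5% of 1.5-fold and 70.7% of 2-fold changes, with 4 false among 98 calls. For the tissue difference (13360 genes) these were 25.9% and 66.3%, with 4 false among 89, and for HepDKO alone (14247 genes) 1% and 29%. Each gene was simulated independently, without differences in tissue content shared between genes, so these rates need not hold in the data. Alternatives were DESeq2 1.42.0, RLE and upper-quartile factors, other filters, all 24 nodose libraries, no genotype term, the scores or 1 surrogate variable (sva 3.50.0) as covariates, a replicate block, removal of 3 abundant RNAs (Rn45s, Lars2 and Mir6236), and each library left out in turn. A fibroblast score as covariate and an adipocyte score without Ucp1 were added after seeing the data. No 2 libraries repeated each other: over 12 replicate pairs, chi-square divided by its degrees of freedom was at least 8.75.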

Additional observations from a re-analysis of the deposited data

Results flagged for a closer look

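In 100 groups of 6 libraries (46 genes, library totals, both scores and the leading principal component at each time), 9 held a library set apart by a gap of more than 0.625 of the group's range, where chance gives about 5. At ZT22, HepDKO replicate 3 was set apart on the leading component (gap 0.671 of the range) and in Hlf (0.687, lowest), Mmp14 (0.651, highest) and Coq10b (0.693, lowest). Control ZT22 replicate 1 was highest in Per2 (0.661), Rhoj (0.76) and Per1 (0.77). At ZT10, Control replicate 1 was highest in Tef (0.639) and lowest in Mmp14 (0.691).

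HepDKO ZT10 replicate 2 held 1694 counts of Xist, where its label says male. The difference between ZT10 and ZT22 was itself different in nodose and arcuate for 20 genes. The lowest p-values among them belonged to Dbp (2.58 on the log2 scale, nodose minus arcuate), Per3 (1.82), Nr1d2 (1.97), Arntl (-3.04) and Npas2 (-3.73), all clock genes.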

How the results depend on the processing

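Of 46 genes, 10 passed under every alternative run (Dbp, Npas2, Arntl, Per3, Nr1d2, Nr1d1, Tef, Ciart, Hlf and Adamts15), 20 passed with each library left out in turn, and 0 changed direction. With DESeq2 133 genes passed (72 higher at ZT10, 61 higher at ZT22), 50 in Control and 26 in HepDKO, and the cause was not tested. With all 24 nodose libraries 36 were higher at ZT22, and 42.9% of calls were higher at ZT10 against 56.5%. With the muscle and adipocyte scores 16 were higher at ZT10 (39% of calls), 20 passed in HepDKO and 40 in the tissue difference. With the fibroblast score 10 passed, 7 higher at ZT10 (70% of calls) and 3 higher at ZT22. A single edgeR fit over both tissues gave 31 for the tissue difference. Whether replicate numbers pair the libraries was not settled. The median correlation was 0.000156 over 18 same-number pairs and -0.0222 over 36 different-number pairs. Of the same-number pairs 7 correlated above 0.1, and 7 of 12 libraries correlated best with their own number. The replicate block gave 42 genes, with 40 of the 46 among them.

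Leaving out 1 library moved the count between 21 and 81, those higher at ZT10 between 14 and 48, those higher at ZT22 between 6 and 33, the Control count between 9 and 20, the tissue difference between 13 and 51, and the adipocyte score difference between 0.54 and 1.02 (exact permutation p from 0.03 to 0.14). Genes not past the threshold changed sign: Fbxl21 to 0.51 with the scores, 0.00128 with the block, 0.044 with the fibroblast score and between -0.21 and 0.20 with libraries left out, and Timeless to 0.029 with the surrogate variable, 0.011 with the block and between -0.13 and 0.36 with libraries left out. On simulated counts with these libraries' means, sizes and number, the fit recovered 24.5% of 1.5-fold changes.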

Other observations

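Further fat genes were chosen after values were seen and are given as values. Of them only Lep is on the adipocyte marker list. Dio2, the deiodinase that activates thyroid hormone in brown fat, had a log2 fold change (ZT10 minus ZT22) of 1.64 (edgeR adjusted p 0.0642), Cidea, a lipid droplet protein of brown fat, 1.54 (adjusted p 0.389) and Elovl3, an elongase induced in brown fat, 1.51 (adjusted p 0.314). Ppara, the receptor that drives fatty acid oxidation genes, had 0.72 (adjusted p 0.0525). Leptin (Lep), a hormone of white fat, had -0.06 (adjusted p 0.98), and Agt had -0.51 (adjusted p 0.755). None of these passed the threshold. Of the 11 genes on the adipocyte list, which include Lep and Ucp1, 9 had a positive log2 fold change, with a median of 0.44. At an unadjusted edgeR p under 0.05, 4 of the 11 were higher at ZT10 and 0 higher at ZT22. Cox8b had 0.51, Cox7a1 0.56, Ppargc1a 0.52, Kcnk3 0.79, Prdm16 -0.08 and Otop1 0.56, all also short of the adjusted threshold. With the muscle and adipocyte scores as covariates Dio2 had 1.12, Cidea 0.68, Elovl3 1.15, Ppara 0.46, Lep -0.76 and Agt -0.998. In that fit Cox8b had 0.27, Cox7a1 0.42, Ppargc1a 0.30, Kcnk3 -0.04, Prdm16 0.13 and Otop1 0.23.

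Piezo2, a mechanosensitive channel of sensory neurons, had the lowest p on the vagal neuron list, with a log2 fold change of -0.34 (edgeR adjusted p 0.27). Its 6 ZT10 libraries lay between 46.3 and 65.3 CPM and its 6 ZT22 libraries between 69.0 and 82.1, with no overlap. Nefh, a heavy neurofilament subunit, had -0.59 (adjusted p 0.336). Of the 8 genes of that list tested, 2 had a positive log2 fold change, and the median was -0.26. Which cells the Piezo2 counts came from was not tested.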
